A study of Mus musculus with 20 samples.

Results

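The hippocampus of male C57BL/6 mice aged 24 months was compared with that of mice aged 5 months, both kept in a standard cage with no perturbation. The comparison takes the 5 libraries labelled 24 months and no perturbation (24mSC) and the 5 libraries labelled 5 months and no perturbation (5mSC), which are 10 of the 20 libraries of the series. The other 10 libraries came from mice of the same strain, sex and ages kept in an enriched environment, a cage with running wheels and changing objects (5mEE and 24mEE, 5 libraries each). According to the study, its old enriched mice entered this housing only late in life, after a standard cage. The study gives no start or length of enrichment for young mice. These 10 libraries enter here through the estimate of spread, which all 4 groups share, and through the age difference in enriched mice. That difference is given beside that of the standard cage. RNA was isolated from each hippocampal sample individually per the study's methods, and the mice were kept in runs at different times that the labels do not name, so that run and group cannot be told apart. The question is which genes, pathways and cell types of the hippocampus differ between old and young mice of the standard cage.

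The hippocampus forms and recalls memories of places and events through a loop of granule cells in the dentate gyrus and pyramidal cells in the fields CA3, CA2 and CA1. Firing neurons switch on immediate early genes within minutes, and these genes in turn set the level of synaptic proteins that adjust the strength of connections. In the ageing brain microglia, the resident immune cells, and astrocytes are known to take on reactive states, the production of new neurons and oligodendrocytes declines, and complement proteins become more abundant. A bulk sample mixes all of these cells, and in it fewer cells of a type and less RNA per cell cannot be told apart.

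Expression was measured as reads counted per gene. The 5mSC libraries held 11.0 to 34.1 M counts each (M, mega), and the 24mSC libraries 18.2 to 24.1 M. The library 5mSC replicate 3 stood apart: the mitochondrial ribosomal RNAs mt-Rnr1 and mt-Rnr2 took 26.8% of its counts (Wilson 95% interval 26.80 to 26.85%, counting error only) against 0.998 to 1.82% in the other 9 libraries. Its log2 levels correlated across genes with those of its group at a median Pearson r of 0.925, against 0.979 to 0.992 for the other 9. It is also the shallowest library. The model was therefore fitted with all 20 libraries and without this library (19 libraries), and a gene is called higher or lower where its adjusted p was under 0.05 without replicate 3. Of 114 genes given here with values that passed without it, 63 did not pass with all 20 libraries. Where a call of these 114 genes is lost in that way, the fold change and adjusted p with replicate 3 follow those without it. Other called members of lists are named without values. They are outside this count, and their own results with all 20 libraries are not given. The coefficient of variation between libraries of a group that edgeR estimates was 17.4% with replicate 3 and 11.3% without it. Levels are counts per M counts (CPM) scaled between libraries by the TMM method, and each list of 5 values below follows the replicate order 1 to 5. Fold changes are log2 of 24mSC over 5mSC with the standard error (SE) of the fit, and adjusted p values come from edgeR's quasi-likelihood test with Benjamini-Hochberg adjustment over all genes tested.

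Markers of all hippocampal neuron fields were present in both groups. The mean log2 CPM of 14 markers of dentate granule cells was 5.07 to 5.78 in 5mSC and 4.62 to 5.59 in 24mSC, and that of 9 markers of CA1 pyramidal cells was 6.11 to 7.02 and 6.57 to 6.97. The means of neocortex and striatum markers were higher in the old libraries than in all young ones but 5mSC replicate 2. Without 5mSC replicate 3, 1 of 10 neocortex and 1 of 12 striatum markers passed. Log2 fold changes were above 0 in 6 neocortex and 9 striatum markers and below 0 in 4 and 3. The mean over 10 neocortex markers was 4.28, 4.54, 4.13, 4.06 and 4.21 in the 5mSC libraries and 4.49, 4.45, 4.61, 4.67 and 4.49 in the 24mSC libraries, so that only 5mSC replicate 2 reached the old range. Over 12 striatum markers the mean ranged over 2.88 to 3.34 in 5mSC and 3.27 to 3.59 in 24mSC. None of these markers was at 0 in all 10 libraries. The mean over the neocortex markers, the neocortex score, was added to the model as a covariate, with results given below. This score itself placed every young library but replicate 2 below all old ones. A call lost with it therefore cannot tell tissue share from age. How much of any age difference goes with the share of neighbouring tissue was not determined.

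With all 20 libraries 78 genes were higher in 24mSC (0.467% of 16692 tested) and 56 were lower (0.335%). Without 5mSC replicate 3, 307 were higher (1.83% of 16755 tested) and 292 were lower (1.74%), and 3735 genes had an unadjusted p under 0.05. Both fits called 132 genes, 78 higher and 54 lower, which is 98.5% of the calls with all libraries and 22% of those without replicate 3. In 579 genes (3.46%) all 24mSC libraries lay above all 4 remaining 5mSC libraries, and in 522 (3.12%) all lay below. The counts moved by over 1.5 times with other single libraries too. With replicate 3 kept, the genes called in both directions together were 1127 without 5mSC replicate 2, 338 without 5mSC replicate 4, 76 without 5mSC replicate 5, 39 without 24mSC replicate 1, 57 without 24mSC replicate 2, 30 without 24mSC replicate 3, 66 without 24mSC replicate 4 and 67 without 24mSC replicate 5, against 134. With replicate 3 out they were 363 without 5mSC replicate 1, 1683 without 5mSC replicate 2, 303 without 5mSC replicate 4, 279 without 5mSC replicate 5, 274 without 24mSC replicate 1, 370 without 24mSC replicate 2, 211 without 24mSC replicate 3, 374 without 24mSC replicate 4 and 338 without 24mSC replicate 5, against 599. Fits of the 2 groups alone called 3 and 109 genes, and with the neocortex markers as a covariate 25 and 110 were called, with and without replicate 3. The median log2 fold change over all genes was -0.0017 without replicate 3 and -0.011 with it.

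Among higher genes that passed in both fits the smallest p belonged to C4b, a complement component that tags material for removal (ENSMUSG00000073418, GRCm38 chr17:34728380-34743882). C4b was at 25.9, 26.4, 31.9, 30.7 and 41.4 CPM in the 5mSC libraries. In the 24mSC libraries it was at 93.4, 95.5, 101, 156 and 104 CPM. Every old library lay above every young one, and 24mSC replicate 4 was the highest. The C4b log2 fold change was 1.81 ± 0.22 without replicate 3 (adjusted p = 0.000212) and 1.81 ± 0.20 with it (adjusted p = 0.00026). Because 34.6% of the 50-base words of C4b also occur in the neighbouring C4a, part of its reads may belong to C4a.

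Among lower genes the smallest p belonged to Gpr17, a receptor found on oligodendrocyte precursors that have begun to differentiate (ENSMUSG00000052229, GRCm38 chr18:31942997-31949636). Gpr17 was at 45.0, 59.5, 40.3, 70.6 and 57.3 CPM in the 5mSC libraries and at 27, 31.9, 29.1, 30.0 and 31.9 CPM in the 24mSC libraries. The old libraries lay close together below all young ones. The Gpr17 log2 fold change was -0.96 ± 0.11 without replicate 3 (adjusted p = 0.000172) and -0.87 ± 0.13 with it (adjusted p = 0.00369).

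Of the 15 higher genes with the smallest p that passed in both fits, 5 were clustered protocadherins, described with the synaptic genes below, and 3 are known from macrophages or lysosomes. Ctss, the lysosomal protease cathepsin S (ENSMUSG00000038642, GRCm38 chr3:95526786-95556403), was at 78.8, 67.4, 45.1, 72.1 and 77.6 CPM in the 5mSC libraries and at 99.5, 110.2, 119, 113 and 84.5 CPM in the 24mSC libraries. The groups did not overlap, and 5mSC replicate 3 was the lowest. The Ctss log2 fold change was 0.50 ± 0.090 without replicate 3 (adjusted p = 0.00608) and 0.62 ± 0.12 with it (adjusted p = 0.0199). Mpeg1, a pore-forming protein of macrophages, ranged over 22.1 to 44.7 CPM in 5mSC and 52.7 to 62.6 CPM in 24mSC (0.54 ± 0.092, adjusted p = 0.00475). Man2b1, the lysosomal alpha-mannosidase, ranged over 36.9 to 49.6 CPM in 5mSC and 58.6 to 70.9 CPM in 24mSC (0.43 ± 0.069, adjusted p = 0.00327). Both separated the groups. Lsp1, an actin-binding protein of leukocytes, ranged over 1.86 to 3.89 CPM in 5mSC and 5.24 to 6.63 CPM in 24mSC (0.88 ± 0.13, adjusted p = 0.00169).

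The other higher genes of this set have roles outside immunity. Lin28b, an RNA-binding protein that blocks let-7 microRNAs, ranged over 2.79 to 5.81 CPM in 5mSC and 6.39 to 8.72 CPM in 24mSC (1.19 ± 0.17, adjusted p = 0.000716). Ppl, the cell junction protein periplakin, ranged over 3.56 to 7.67 CPM in 5mSC and 8.78 to 11.4 CPM in 24mSC (1.12 ± 0.17, adjusted p = 0.00169). Itih3, a heavy chain that binds hyaluronan in the extracellular matrix, ranged over 19.4 to 29.1 CPM in 5mSC and 31.9 to 46.5 CPM in 24mSC (0.77 ± 0.12, adjusted p = 0.00236). Crb2, a protein of apical cell polarity, and the lipid transporter Abca8a also rose (0.57 ± 0.10, adjusted p = 0.00548 and 0.72 ± 0.13, adjusted p = 0.00567). All 5 genes separated the groups completely in all 10 libraries.

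Of the 15 lower genes, Homer1, Dusp5 and Crem belong to the activity lists and Dnajb5 to the chaperones, and they are described there, as is Dio2 with the hormone genes. Gpx8, a peroxidase of the endoplasmic reticulum, was at 3.78, 3.17, 4.27, 4.30 and 4.22 CPM in the 5mSC libraries and at 1.58, 1.81, 1.51, 1.30 and 1.53 CPM in the 24mSC libraries. The old level was below every young one at fewer than 2 CPM. The Gpx8 log2 fold change was -1.34 ± 0.18 without replicate 3 (adjusted p = 0.000539) and -1.35 ± 0.19 with it (adjusted p = 0.00369). Tnfrsf25, a death receptor of the tumour necrosis factor family, ranged over 18.5 to 46.1 CPM in 5mSC and 6.51 to 12.3 CPM in 24mSC (-1.38 ± 0.21, adjusted p = 0.0022). Cfp, the complement regulator properdin, ranged over 11.6 to 29.8 CPM in 5mSC and 8.01 to 10.3 CPM in 24mSC (-0.61 ± 0.10, adjusted p = 0.00382), with its highest value in 5mSC replicate 3. Kmt5a, which adds a single methyl group to lysine 20 of histone H4, varied little within groups, over 42.7 to 45.5 CPM in 5mSC and 29.9 to 37.5 CPM in 24mSC (-0.40 ± 0.068, adjusted p = 0.00441). Dok3, an adaptor of immune receptors, ranged over 6.89 to 21.3 CPM in 5mSC and 4.23 to 5.94 CPM in 24mSC (-0.95 ± 0.17, adjusted p = 0.00643).

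Some lower genes cannot be assigned with certainty, because the libraries do not keep the strand or because other genes hold the same words. 1700016P03Rik, with -1.33 ± 0.20, adjusted p = 0.00206, overlaps Ovca2 on the opposite strand over 74.3% of its exons. Zmym1 (-0.62 ± 0.11, adjusted p = 0.00705) shares 38.6% of its words with Gm12940, and Slc6a20a (-1.12 ± 0.19, adjusted p = 0.00416) shares 26.7% with other genes. 4921524J17Rik (-0.68 ± 0.12, adjusted p = 0.00558) shares 10.7%. All these genes separated the groups.

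**Figure D1:**
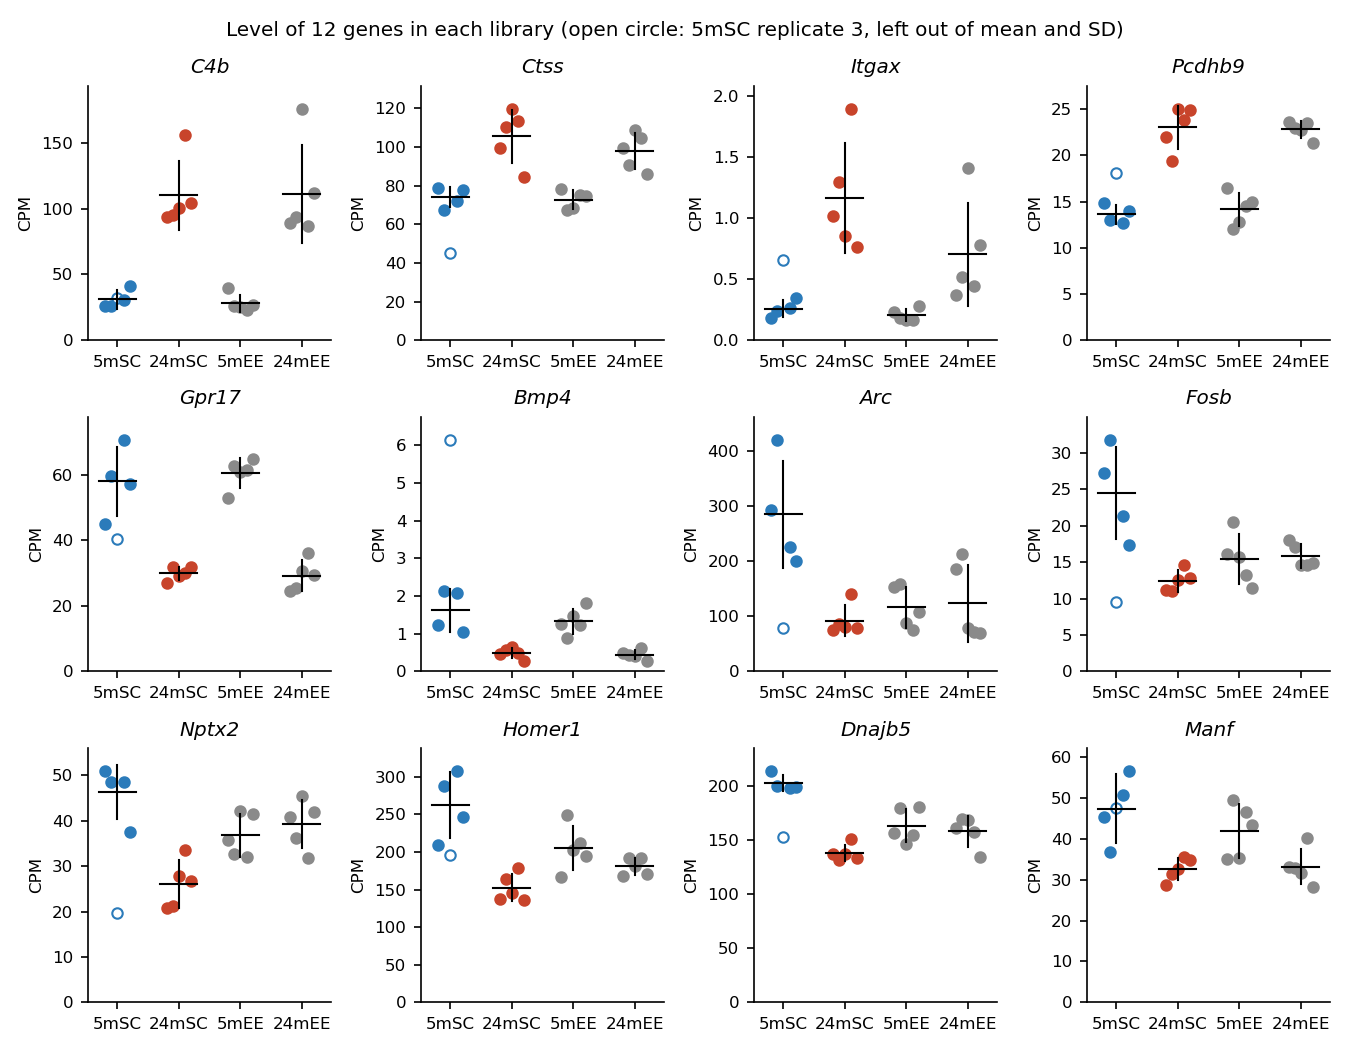
Level of 12 genes in CPM (vertical axis, from 0) for each of the 20 libraries by group. Each point is a library, the line and bar are the mean and SD, and the open circle is 5mSC replicate 3, left out of both. C4b is at 93.4 CPM or more in every 24mSC library and at 41.4 CPM or less in every 5mSC library, whereas for Arc the open circle at 79.0 CPM lies among the 24mSC values.

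Immune genes were called in several lists. All list counts below are to be read against 1.83% of all genes higher and 1.74% lower without replicate 3, and 0.467% and 0.335% with it. Of 22 measured genes of activated and phagocytic microglia, 6 rose and none fell without replicate 3 (5 rose with it). The list median was 0.20, against -0.0017 over all genes, and 18 members were above 0. The mean log2 CPM of the list was 3.62, 3.57, 3.56, 3.73 and 3.58 in the 5mSC libraries and 3.91, 3.98, 4.11, 4.46 and 4.07 in the 24mSC libraries. The groups did not overlap, and the young values, replicate 3 included, spanned a narrow band.

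Besides Ctss, the list's calls with the smallest p were Itgax, Clec7a and Cd68. Itgax, an integrin chain that marks microglia around plaques and white matter, had 5, 4, 6, 9 and 11 counts in the 5mSC libraries and 20, 25, 21, 35 and 16 in the 24mSC libraries. Clec7a, the glucan receptor dectin-1, had 5, 3, 3, 13 and 22 counts in the 5mSC libraries and 15, 23, 36, 55 and 28 in the 24mSC libraries. Both genes are rare, and in CPM neither gene's groups overlapped. The Itgax log2 fold change was 2.10 ± 0.38 without replicate 3 (adjusted p = 0.00608) and 1.90 ± 0.39 with it (adjusted p = 0.0239). The Clec7a log2 fold change was 1.98 ± 0.40 without replicate 3 (adjusted p = 0.0115) and 2.05 ± 0.39 with it (adjusted p = 0.0199). Cd68, a glycoprotein of phagocytic lysosomes, ranged over 6.79 to 8.57 CPM in 5mSC and 9.18 to 12.5 CPM in 24mSC (0.41 ± 0.10, adjusted p = 0.0257). The other members called were Gpnmb, a glycoprotein of lipid-laden phagocytes, and Lyz2, the macrophage lysozyme.

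Homeostatic microglia genes included calls in both directions. Of 14 members, 3 rose and 1 fell, 12 were above 0, and the median was 0.12. Cx3cr1, the fractalkine receptor, ranged over 25.4 to 48.4 CPM in 5mSC and 55.0 to 61.3 CPM in 24mSC (0.42 ± 0.088, adjusted p = 0.0155). P2ry13, a receptor for adenosine diphosphate, and Sall1, a transcription factor of microglial identity, also rose (0.47 ± 0.11, adjusted p = 0.022 and 0.35 ± 0.092, adjusted p = 0.0397, with replicate 3 0.41, adjusted p = 0.0509). Fcrls, an Fc receptor-like protein of resident microglia, was at 6.80, 6.76, 8.66, 6.97 and 9.20 CPM in the 5mSC libraries and at 3.62, 4.29, 5.09, 2.7 and 3.98 CPM in the 24mSC libraries. Its groups did not overlap, in the direction opposite to the others (-0.92 ± 0.20, adjusted p = 0.0179).

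Of 19 complement genes 3 rose and none fell, with a median of 0.18. They were C4b, Itgb2, the shared chain of complement receptors (0.53 ± 0.10, adjusted p = 0.00944), and C3, the central component. The complement regulator Cfp, given above, is not in this list, and it fell (-0.61 ± 0.10, adjusted p = 0.00382). C3 was at 1.30, 0.731, 1.21, 1.27 and 0.814 CPM in the 5mSC libraries and at 1.63, 2.07, 4.60, 11.1 and 8.63 CPM in the 24mSC libraries. The old libraries differed among themselves far more than the young ones, from 1.63 to 11.1 CPM, and all lay above them. The C3 log2 fold change was 2.4 ± 0.57 without replicate 3 (adjusted p = 0.0269) and 2.39 ± 0.54 with it (adjusted p = 0.0421).

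Interferon, antigen presentation and cytokine genes gave few calls. Of 35 interferon-stimulated genes 3 rose without replicate 3 and none with it (0 to 3 with another library left out), and 31 were above 0 with a median of 0.42 (0.15 with replicate 3). The list mean in log2 CPM was 1.45, 1.57, 2.48, 1.58 and 1.69 in the 5mSC libraries and 2.12, 1.68, 1.51, 1.79 and 2.49 in the 24mSC libraries, which overlap. The calls were Oasl2 (0.77 ± 0.19, adjusted p = 0.03, with replicate 3 0.45, adjusted p = 0.319), Ifit2 (0.49 ± 0.12, adjusted p = 0.0303, with replicate 3 0.43, adjusted p = 0.0809) and Ifih1 (0.50 ± 0.13, adjusted p = 0.0423, with replicate 3 0.51, adjusted p = 0.0626), all sensors or effectors of the antiviral response, and Oasl2 stood at 7.56 CPM in 5mSC replicate 3 against 2.56 to 3.47 CPM in the other young libraries. None of 20 genes of MHC class I presentation passed. Their median was 0.29, with Pdia3 at -0.27 ± 0.076, adjusted p = 0.0515 and Nlrc5, their transcriptional activator, at 1.06 ± 0.36, adjusted p = 0.0918. Of 28 genes of NF-kB and cytokine signalling Socs3, a brake on cytokine receptors (0.92 ± 0.20, adjusted p = 0.018, with replicate 3 0.68, adjusted p = 0.135), and Il4ra, the interleukin 4 receptor (0.71 ± 0.16, adjusted p = 0.022), rose. Of 20 pattern receptor genes the inflammasome protease Casp1 (1.11 ± 0.31, adjusted p = 0.0484, with replicate 3 1.11, adjusted p = 0.0687) and Irf8, a transcription factor of microglia (0.35 ± 0.094, adjusted p = 0.0434, with replicate 3 0.14, adjusted p = 0.635), rose. Of 20 markers of T and B lymphocytes only 5 passed the filter on low counts, and none of these passed the test.

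Reactive astrocyte genes split. Of 29 members 4 rose and 1 fell, with a median of 0.075 (1 rose and none fell with replicate 3). Gfap, the intermediate filament of astrocytes, was at 354, 347, 244, 396 and 437 CPM in the 5mSC libraries and at 452, 615, 550.0, 746 and 489 CPM in the 24mSC libraries. All old libraries lay above the young ones, the nearest by a small gap. The Gfap log2 fold change was 0.56 ± 0.15 without replicate 3 (adjusted p = 0.0402) and 0.68 ± 0.16 with it (adjusted p = 0.0514). This call held in only 7 of 19 alternatives. Cd44, a hyaluronan receptor, was at 3.20, 4.94, 5.59, 2.64 and 1.88 CPM in the 5mSC libraries and at 6.22, 8.27, 9.56, 7.40 and 7.24 CPM in the 24mSC libraries (1.33 ± 0.27, adjusted p = 0.0116, with replicate 3 1.14, adjusted p = 0.0521). C3 and Aspg were the other 2 that rose, and Amigo2, an adhesion protein, fell (-0.59 ± 0.16, adjusted p = 0.0451, with replicate 3 -0.53, adjusted p = 0.0827). Of 16 astrocyte identity genes Gfap rose and none fell, at a median of 0.0063, with the fibroblast growth factor receptor Fgfr3 at 0.38 ± 0.11, adjusted p = 0.0662.

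Few genes of the oligodendrocyte lineage were called. Of 20 genes of precursors and commitment 2 fell, Gpr17 and Bmp4, a signal that holds back differentiation, and the list median was -0.020. Bmp4 was at 1.22, 2.13, 6.14, 2.08 and 1.03 CPM in the 5mSC libraries and at 0.459, 0.568, 0.651, 0.486 and 0.288 CPM in the 24mSC libraries. Old libraries held 6 to 16 counts of it and young ones 33 to 70, with no overlap. The Bmp4 log2 fold change was -1.69 ± 0.28 without replicate 3 (adjusted p = 0.0036) and -2.26 ± 0.41 with it (adjusted p = 0.0123). None of 22 mature myelin genes passed, 15 of them lay above 0 at a median of 0.089, and the members with the smallest p were Apod (0.37 ± 0.16, adjusted p = 0.174) and Myrf (0.29 ± 0.15, adjusted p = 0.248).

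Genes of vessel walls and of the fibroblasts of the meninges included several that fell. None of 24 genes of brain endothelium passed (median -0.029). Of 14 genes of pericytes and smooth muscle Tagln (-1.03 ± 0.20, adjusted p = 0.00824) and Acta2 (-1.03 ± 0.27, adjusted p = 0.0388, with replicate 3 -1.0, adjusted p = 0.0599), both of the contractile apparatus, fell, although 67.9% of the Tagln exons overlap another gene on the opposite strand and the groups overlapped for both. Of 28 fibroblast genes 3 fell and none rose, with a median of -0.36 (-0.44 with replicate 3). Leaving out another library gave 1 to 10 lower genes, 10 without 5mSC replicate 2 and 1 without 5mSC replicate 4, 24mSC replicate 3 or 24mSC replicate 5. Ptgds, prostaglandin D synthase, was at 165, 240.0, 448, 728 and 163 CPM in the 5mSC libraries and at 155, 126, 128, 119.6 and 106 CPM in the 24mSC libraries. Replicates 3 and 4 of 5mSC were far above the rest, and the lowest young library lay close above the highest old one. The Ptgds log2 fold change was -1.36 ± 0.31 without replicate 3 (adjusted p = 0.0239) and -1.46 ± 0.31 with it (adjusted p = 0.0295). Slc6a20a, given above, and Fmod (-1.34 ± 0.35, adjusted p = 0.0397, with replicate 3 -1.18, adjusted p = 0.0893) were the other 2. Fmod stood at 17.2 CPM in 5mSC replicate 4 against 3.06 to 6.83 CPM in the other young libraries, and without that library too its log2 fold change was -0.56 and it did not pass. Among 37 genes of collagens and their processing 2 rose and 2 fell. The 2 that fell, the prolyl hydroxylase P4ha1 (-0.51 ± 0.080, adjusted p = 0.00236, with replicate 3 -0.40, adjusted p = 0.0756) and the collagen chaperone Serpinh1 (-0.47 ± 0.11, adjusted p = 0.0263, with replicate 3 -0.44, adjusted p = 0.0551), act in the endoplasmic reticulum, and the 2 that rose were the chains Col5a3 (0.67 ± 0.16, adjusted p = 0.0269, with replicate 3 0.32, adjusted p = 0.47) and Col8a1 (1.41 ± 0.37, adjusted p = 0.0407, with replicate 3 0.62, adjusted p = 0.515). Of 16 genes of choroid plexus and ependyma 1 rose, and the list mean in log2 CPM was 2.50 in 5mSC replicate 3 against 0.35 to 0.85 in the other young libraries. It was -0.017 to 1.67 in the old libraries. The member that rose was the prolactin receptor Prlr (0.71 ± 0.20, adjusted p = 0.0476, with replicate 3 0.48, adjusted p = 0.253).

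Genes induced by neuronal activity were lower in the old mice once replicate 3 was left out. Of 26 immediate early genes 9 fell and none rose, and 25 were below 0, at a median of -0.63. With replicate 3 none passed, and the median was -0.53. The mean log2 CPM of the list was 4.97, 5.01, 3.80, 4.46 and 4.21 in the 5mSC libraries and 4.00, 3.87, 4.00, 4.29 and 3.98 in the 24mSC libraries. Replicate 3 of 5mSC was the lowest of all 10, below every old library, and without it 1 young library, replicate 5, still lay within the old range.

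Arc, which shapes glutamate receptor traffic at synapses (ENSMUSG00000022602, GRCm38 chr15:74669083-74672570), was among them. Arc was at 292, 420.1, 79.0, 226 and 201 CPM in the 5mSC libraries and at 74.7, 86.4, 80.3, 141 and 79.0 CPM in the 24mSC libraries. The 4 other young libraries were at 201 CPM or more and every old one at 141 CPM or less, while replicate 3 lay among the old. The Arc log2 fold change was -1.63 ± 0.33 without replicate 3 (adjusted p = 0.0111) and -1.40 ± 0.37 with it (adjusted p = 0.0648). Fosb, a subunit of the AP-1 transcription factor, was at 27.2, 31.8, 9.53, 21.4 and 17.4 CPM in the 5mSC libraries and at 11.2, 11.0, 12.5, 14.6 and 12.8 CPM in the 24mSC libraries (-0.97 ± 0.16, adjusted p = 0.00316, with replicate 3 -0.80, adjusted p = 0.062). Here replicate 3 lay below all old libraries and the other young ones above them. The transcription factors Egr3 (-0.43 ± 0.081, adjusted p = 0.00837, with replicate 3 -0.23, adjusted p = 0.512) and Nr4a3 (-0.59 ± 0.12, adjusted p = 0.0124, with replicate 3 -0.42, adjusted p = 0.182) also fell, with replicate 3 at 16.9 and 77.6 CPM, below the old ranges of 36.6 to 41.4 and 112 to 115 CPM. For Egr3 the groups overlapped without replicate 3 too, since 5mSC replicate 1 at 40.0 CPM lay within the old range. The other members called were Gadd45b, Gadd45g, Nr4a1, Klf10 and Egr4.

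Slower effectors of activity were called lower as well. Of 21 late activity-regulated genes 6 fell (2 with replicate 3) and none rose, at a median of -0.26. Homer1, a scaffold of the postsynaptic density whose short form is induced by activity (ENSMUSG00000007617, GRCm38 chr13:93299635-93405129), was at 209, 288, 195, 307 and 246 CPM in the 5mSC libraries and at 138, 164, 145, 178 and 137 CPM in the 24mSC libraries. It separated the groups with replicate 3 included. The Homer1 log2 fold change was -0.79 ± 0.11 without replicate 3 (adjusted p = 0.000716) and -0.71 ± 0.12 with it (adjusted p = 0.00864). Bdnf, the neurotrophin of activity-dependent plasticity, was at 68.0, 63.4, 30.7, 60.0 and 55.3 CPM in the 5mSC libraries and at 42.0, 40.4, 42.7, 50.3 and 42.2 CPM in the 24mSC libraries (-0.51 ± 0.086, adjusted p = 0.00401, with replicate 3 -0.36, adjusted p = 0.165), with 12.7% of its words shared with Gm45346. Nptx2, a secreted pentraxin that gathers glutamate receptors, was at 51.0, 48.5, 19.6, 48.6 and 37.6 CPM in the 5mSC libraries and at 20.9, 21.3, 27.8, 33.6 and 26.8 CPM in the 24mSC libraries (-0.84 ± 0.13, adjusted p = 0.00267, with replicate 3 -0.67, adjusted p = 0.0722). In both genes replicate 3 was below every old library. Inhba, a subunit of activin, ranged over 1.73 to 7.77 CPM in 5mSC and 2.01 to 2.6 CPM in 24mSC, with an overlap at 5mSC replicate 1 (-1.25 ± 0.29, adjusted p = 0.0241). Nrn1 and Lingo3 were the other members called.

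Of 21 feedback regulators of the CREB and MAPK pathways 5 fell (2 with replicate 3), and 20 were below 0 at a median of -0.21. Dusp5, a phosphatase of nuclear ERK, was at 39.5, 34.1, 20.6, 29.4 and 24.3 CPM in the 5mSC libraries and at 15.1, 16.9, 16.9, 22.2 and 15.1 CPM in the 24mSC libraries. Replicate 3 of 5mSC lay below the highest old library, and the other young libraries above it. The Dusp5 log2 fold change was -0.89 ± 0.15 without replicate 3 (adjusted p = 0.00435) and -0.79 ± 0.16 with it (adjusted p = 0.0255), and 22.1% of its exons lie opposite another gene. Crem, a transcription factor of the CREB family, ranged over 21.5 to 26.2 CPM in 5mSC and 15.8 to 19.2 CPM in 24mSC with no overlap (-0.46 ± 0.080, adjusted p = 0.00562). Errfi1, an inhibitor of the epidermal growth factor receptor, and Dusp6, a cytosolic ERK phosphatase, also fell (-0.61 ± 0.11, adjusted p = 0.00649, with replicate 3 -0.50, adjusted p = 0.0577 and -0.61 ± 0.12, adjusted p = 0.00832, with replicate 3 -0.48, adjusted p = 0.0814), and Spry4 was the other member called.

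Promoters of these genes were searched for the elements through which activity acts. A few promoters of genes that fell are shown, chosen after their values were seen. Promoters are RefSeq windows of GRCm38.p6 from 250 bases before to 50 after the start, on both strands, and 12086 tested genes have one. The short site TGACG of the cAMP response element occurs in 33.4% of all promoters, in 15 of 21 immediate early genes and in 11 of 15 late effectors with a promoter. The full element TGACGTCA, which contains the short site, occurs in 3.43% of all promoters and in 3 of 21 and 3 of 15 of these. It is in 14 of 222 genes that fell without replicate 3 (6.31%) and in 5 of 217 that rose (2.30%). The serum response element occurs in 1.56% of all promoters, and its share in the lists is not given here. No motif share is given for the feedback regulators either, so the Dusp5 and Errfi1 sequences are examples only. A match describes letters, not binding. Capitals mark the short sites in Homer1, the full element in Errfi1 and in Dio2, a hormone gene given below, and 2 adjoining serum response elements in Dusp5.
Homer1 (chr13:93303681-93303767, plus strand): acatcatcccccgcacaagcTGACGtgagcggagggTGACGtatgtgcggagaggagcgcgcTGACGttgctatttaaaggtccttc
Errfi1 (chr4:150854999-150855046, plus strand): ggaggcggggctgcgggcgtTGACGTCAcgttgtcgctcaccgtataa
Dio2 (chr12:90739106-90739153, minus strand): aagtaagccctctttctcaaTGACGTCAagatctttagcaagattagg
Dusp5 (chr19:53529043-53529102, plus strand): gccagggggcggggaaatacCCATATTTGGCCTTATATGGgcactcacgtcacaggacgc

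Chaperone genes were called in 1 direction, lower. Of 31 heat shock proteins and partners, most of them cytosolic, 10 fell without replicate 3 and 3 with it, among the 10 the mitochondrial Hspe1 and Hspd1, none rose and 28 were below 0, at a median of -0.22. Dnajb5, a DnaJ partner of Hsp70 (ENSMUSG00000036052, GRCm38 chr4:42949814-42959425), was at 213, 199, 152, 198 and 199 CPM in the 5mSC libraries and at 137, 131, 137, 151 and 133 CPM in the 24mSC libraries. The old libraries lay below all young ones, with replicate 3 the lowest young library. The Dnajb5 log2 fold change was -0.56 ± 0.073 without replicate 3 (adjusted p = 0.00033) and -0.48 ± 0.090 with it (adjusted p = 0.0165). Dnajb1, another DnaJ partner, ranged over 58.7 to 79.1 CPM in 5mSC and 49.9 to 59.7 CPM in 24mSC (-0.44 ± 0.080, adjusted p = 0.00649, with replicate 3 -0.37, adjusted p = 0.0514). Hspe1, the mitochondrial chaperonin of 10 kDa, ranged over 20.8 to 29.8 CPM in 5mSC and 15.8 to 20.9 CPM in 24mSC (-0.53 ± 0.10, adjusted p = 0.00747), with 22.8% shared words. Ahsa2, an activator of the Hsp90 ATPase, also fell (-0.39 ± 0.081, adjusted p = 0.0155), but 50.2% of its exons overlap Usp34 on the opposite strand. The other members called were Hsph1, Stip1, Chordc1, Dnaja1, Hspd1 and Hspa1b.

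Heat shock genes carry binding sites of HSF1, the heat shock factor, built from repeats of GAA and its complement. The triple GAA, TTC and GAA with 2 bases between each, on either strand, is in 0.571% of all promoters, in 5 of 25 promoters of the list and in 4 of the 10 members that fell. These 4 are shown, chosen after their values were seen. The genes of the chaperonin pair Hspe1 and Hspd1 lie head to head and share the window, printed from each strand. Capitals mark the run of overlapping triples.
Hspe1 (chr1:55088039-55088096, plus strand): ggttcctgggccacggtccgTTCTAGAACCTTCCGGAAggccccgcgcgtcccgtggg
Hspd1 (chr1:55088039-55088096, minus strand): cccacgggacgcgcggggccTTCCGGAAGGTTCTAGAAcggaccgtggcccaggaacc
Hsph1 (chr5:149636268-149636320, minus strand): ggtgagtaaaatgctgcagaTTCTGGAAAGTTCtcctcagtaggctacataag
Chordc1 (chr9:18292243-18292305, plus strand): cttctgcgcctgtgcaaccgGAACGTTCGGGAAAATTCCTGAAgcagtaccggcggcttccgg

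Hsph1, the chaperone Hsp110, was at 406, 431, 287, 528 and 405 CPM in the 5mSC libraries and at 338, 308, 318, 373 and 379.6 CPM in the 24mSC libraries. All young libraries but replicate 3 lay above the old ones (-0.38 ± 0.089, adjusted p = 0.026, with replicate 3 -0.26, adjusted p = 0.216). Chordc1, a partner of Hsp90, ranged over 71.4 to 86.9 CPM in 5mSC and 55.1 to 66.1 CPM in 24mSC, and here replicate 3 lay with the other young libraries (-0.37 ± 0.094, adjusted p = 0.0369, with replicate 3 -0.37, adjusted p = 0.0543). Hspd1, the mitochondrial Hsp60, was at -0.22 ± 0.058, adjusted p = 0.0413, with replicate 3 -0.13, adjusted p = 0.382, and 42.1% of its words occur in other genes, most of them in pseudogenes.

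Of 31 chaperones and stress genes of the endoplasmic reticulum 9 fell (2 with replicate 3), none rose and 26 were below 0, at a median of -0.17. Manf, a secreted protein of the stressed reticulum, was at 45.3, 36.7, 47.4, 50.7 and 56.5 CPM in the 5mSC libraries and at 28.8, 31.3, 32.6, 35.6 and 34.7 CPM in the 24mSC libraries. Its groups did not overlap with replicate 3 included. The Manf log2 fold change was -0.55 ± 0.12 without replicate 3 (adjusted p = 0.0196) and -0.54 ± 0.12 with it (adjusted p = 0.0348). Creld2 (-0.58 ± 0.12, adjusted p = 0.0145, with replicate 3 -0.46, adjusted p = 0.0959) and Sdf2l1 (-0.80 ± 0.19, adjusted p = 0.0257), both of protein folding, and the Hsp70 partner Dnajb11 (-0.34 ± 0.072, adjusted p = 0.0155, with replicate 3 -0.23, adjusted p = 0.227) fell as well. Hspa5, the main chaperone of the reticulum, ranged over 244 to 475 CPM in 5mSC and 225 to 343 CPM in 24mSC, so that old and young libraries overlapped even without replicate 3 (-0.51 ± 0.12, adjusted p = 0.0269, with replicate 3 -0.39, adjusted p = 0.149). The other members called were Atf4, Xbp1, Pdia4 and Herpud1, of which Atf4 and Xbp1 are transcription factors of the stress response.

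The endoplasmic reticulum stress element, CCAAT followed by CCACG after 9 bases, is in 0.149% of all promoters and in 9 of 27 promoters of the list, 2 of them among the 8 members that fell and have a promoter. Both are shown, chosen after their values were seen, with the element in capitals, on the opposite strand in Creld2.
Hspa5 (chr2:34772005-34772063, plus strand): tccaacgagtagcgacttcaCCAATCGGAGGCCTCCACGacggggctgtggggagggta
Creld2 (chr15:88819500-88819558, plus strand): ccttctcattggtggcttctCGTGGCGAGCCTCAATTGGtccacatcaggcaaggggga

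Other parts of protein quality control gave few calls, where 1.83% of all genes rose and 1.74% fell. Of 31 proteasome genes 1 fell, Psma3 (-0.26 ± 0.069, adjusted p = 0.0397, with replicate 3 -0.34, adjusted p = 0.0543; 0 to 8 with another library left out, 8 without 5mSC replicate 2), and 30 were below 0 at a median of -0.12. None of 13 genes of the chaperonin CCT and prefoldin passed, and all 13 were below 0 (median -0.16). Of 28 autophagy genes 1 fell, Atg12 (-0.26 ± 0.070, adjusted p = 0.0407, with replicate 3 -0.20, adjusted p = 0.175). Of 52 lysosomal genes 2 rose (3.85%), Man2b1 and Ctss, and 39 were above 0 at a median of 0.087.

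**Figure D2:**
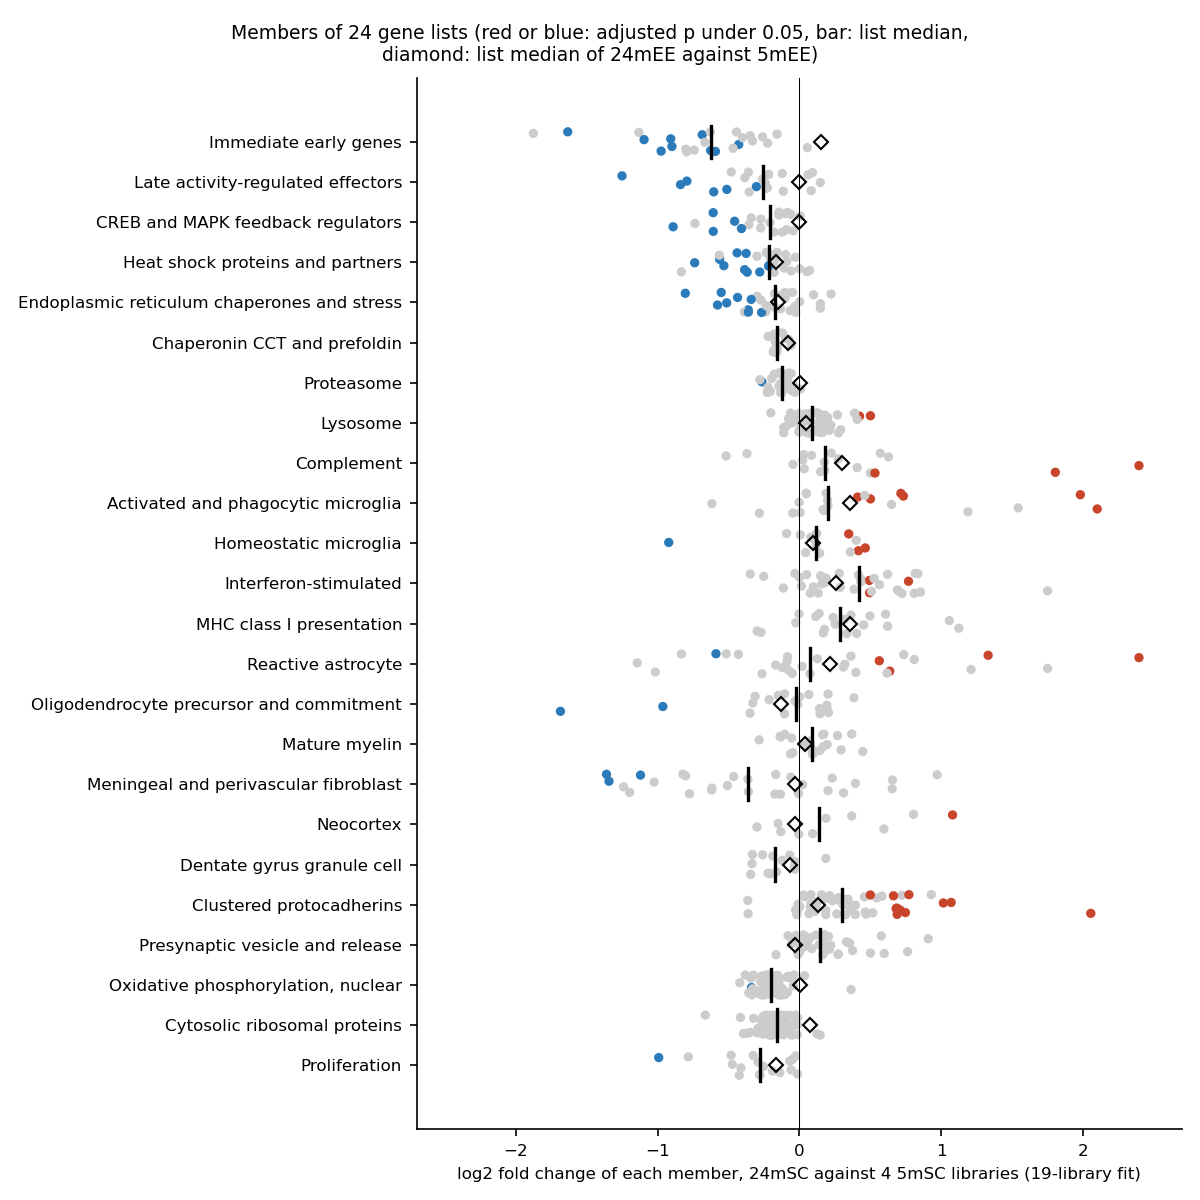
Log2 fold change of each measured member of 24 gene lists without 5mSC replicate 3 (horizontal axis), 1 row per list. Red and blue points passed at an adjusted p under 0.05, grey points did not, the bar is the list median and the diamond the median of the age difference in enriched mice. For the immediate early genes the bar lies at -0.63 and the diamond at 0.15, while for the heat shock proteins both lie below 0.

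**Figure D3:**
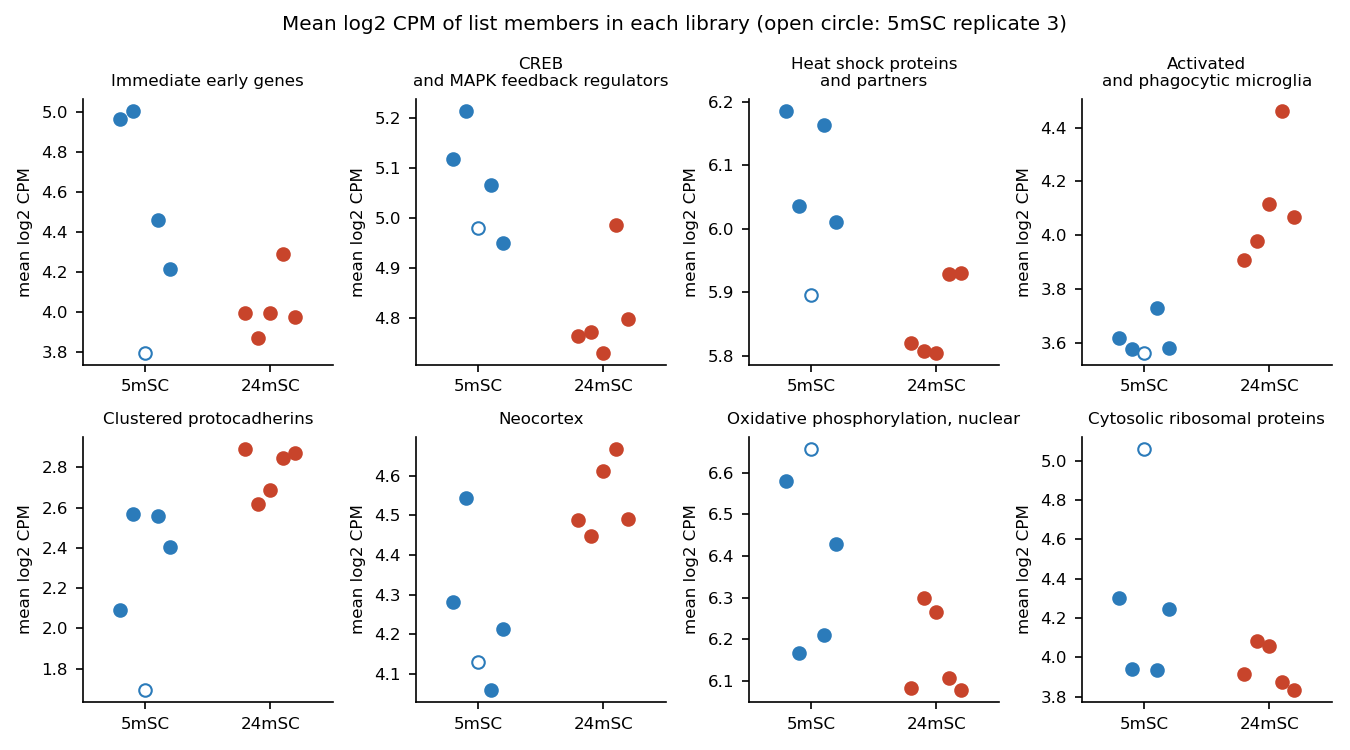
Mean log2 CPM of the members of 8 gene lists (vertical axes) in each 5mSC and 24mSC library, with 5mSC replicate 3 as an open circle. The vertical axes do not start at 0. Activated microglia genes lie at 3.73 or less in every young library and at 3.91 or more in every old one, whereas for immediate early genes the open circle at 3.80 lies below all old libraries.

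The activity and chaperone calls rest on the choice of libraries and on the model. Leaving out each remaining library of the 2 groups in turn gave 5 to 10 lower immediate early genes, 4 to 13 lower heat shock genes and 2 to 13 lower genes of the endoplasmic reticulum list, and with the 2 groups fitted alone the counts were 6, 2 and 0. With the neocortex score as a covariate 16 immediate early genes were lower, at a median of -0.90, and 2 and 1 of the chaperone lists. Activated microglia calls were 3 to 7 when 1 library was left out and 2 with the neocortex covariate.

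Clustered protocadherins are adhesion proteins that give each neuron its own surface identity. Of 54 measured members 12 rose and none fell without replicate 3, 7 rose with it, and 48 were above 0, at a median of 0.30 (0.37 with replicate 3). Pcdhb9 was at 14.9, 13, 18.1, 12.7 and 14.0 CPM in the 5mSC libraries and at 22, 19.4, 25, 23.8 and 24.9 CPM in the 24mSC libraries. The groups did not overlap, and replicate 3 was the highest young library. The Pcdhb9 log2 fold change was 0.75 ± 0.092 without replicate 3 (adjusted p = 0.000225) and 0.68 ± 0.10 with it (adjusted p = 0.00404). Pcdhga6 (0.71 ± 0.088, adjusted p = 0.000225) shares 44.8% of its exons with other genes of its cluster on the same strand, so its reads may belong to them. Pcdhb2 (1.07 ± 0.17, adjusted p = 0.0029), Pcdhb8 (1.02 ± 0.17, adjusted p = 0.00441) and Pcdhb5 (0.66 ± 0.11, adjusted p = 0.00475) rose without overlap. The other members called were Pcdhb1, Pcdhb3, Pcdhb4, Pcdhb6, Pcdhb20, Pcdhga1 and Pcdhga7. Pcdha4 and Pcdhga10 had no count in any of the 10 libraries. The mean log2 CPM of the list was 1.69 in 5mSC replicate 3, 2.09 to 2.57 in the other young libraries and 2.62 to 2.89 in the old ones.

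Synaptic and channel genes gave scattered calls, where 1.83% of all genes rose and 1.74% fell. None of 38 presynaptic genes passed, although 31 were above 0 (median 0.15). Of 34 glutamate receptor genes Cnih2, an auxiliary subunit of AMPA receptors, fell (-0.52 ± 0.12, adjusted p = 0.0244, with replicate 3 -0.38, adjusted p = 0.17), and the kainate receptor Grik3 stood at 0.63 ± 0.18, adjusted p = 0.0552. Of 35 genes of the postsynaptic scaffold and synaptic adhesion Cbln4, a secreted synapse organizer, rose (1.08 ± 0.28, adjusted p = 0.0397, with replicate 3 1.16, adjusted p = 0.0514), and Homer1 and Cttnbp2, a cortactin-binding protein (-0.22 ± 0.059, adjusted p = 0.0401, with replicate 3 -0.27, adjusted p = 0.0691), fell. Among 56 potassium channel genes the modulator Kcnip3 and the sodium-activated channel Kcnt1 rose (0.37 ± 0.10, adjusted p = 0.0387, with replicate 3 0.49, adjusted p = 0.0551 and 0.62 ± 0.16, adjusted p = 0.0397, with replicate 3 0.56, adjusted p = 0.0794) and Kcnip2 fell (-0.44 ± 0.10, adjusted p = 0.0257, with replicate 3 -0.41, adjusted p = 0.0543). Among 33 genes of calcium channels and buffers the pump Atp2b4 rose (1.02 ± 0.28, adjusted p = 0.045, with replicate 3 1.04, adjusted p = 0.0543) and the sensor Hpca fell (-0.42 ± 0.10, adjusted p = 0.0339, with replicate 3 -0.22, adjusted p = 0.532).

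Markers of the pyramidal fields fell in a few members. Of 8 CA2 markers 2 fell, Rgs14, a brake on G protein signalling in CA2 cells (-0.52 ± 0.13, adjusted p = 0.034, with replicate 3 -0.34, adjusted p = 0.294), and Amigo2, given above. The mean of the CA2 list was 4.73 to 4.85 in the 4 young libraries, 4.49 to 4.63 in the old ones and 4.44 in 5mSC replicate 3. Of 9 CA1 markers 1 fell, Zdhhc2, an enzyme that attaches palmitate to synaptic proteins (-0.38 ± 0.10, adjusted p = 0.0443, with replicate 3 -0.26, adjusted p = 0.261). None of 9 CA3 or 14 dentate markers passed, and 8 and 13 of them were below 0, at medians of -0.27 and -0.17. Of 10 neocortex markers the heparan sulfatase Sulf1 rose (1.08 ± 0.21, adjusted p = 0.011, with replicate 3 0.90, adjusted p = 0.0587), and Scnn1a stood at 0.60 ± 0.17, adjusted p = 0.0572. Of 12 striatum markers the dopamine receptor Drd1 rose (1.01 ± 0.23, adjusted p = 0.023, with replicate 3 0.88, adjusted p = 0.0663). None of 28 genes of inhibitory neurons passed.

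Energy and translation genes gave 1 call in all, where 1.83% of all genes rose and 1.74% fell. Of 75 nuclear genes of oxidative phosphorylation 1 fell, Atp5g1, a subunit of the ATP synthase ring (-0.34 ± 0.090, adjusted p = 0.0413, with replicate 3 -0.42, adjusted p = 0.0543), and 73 were below 0 at a median of -0.20. Their mean log2 CPM was 6.58, 6.17, 6.66, 6.21 and 6.43 in the 5mSC libraries and 6.08 to 6.30 in the old ones. Replicates 1 and 3 of 5mSC were the highest, and with both left out the median was -0.11 and 0 members passed, whereas 24 were lower with replicates 2 and 3 left out. None of 78 cytosolic ribosomal protein genes passed, and 76 were below 0, at a median of -0.16 without replicate 3, -0.34 with it and -0.10 with replicate 1 left out as well. None of 22 glycolysis genes passed.

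In sterol metabolism 2 of 34 genes rose. Srebf1, which switches on lipid synthesis, was at 69.6, 67.6, 32.2, 56.8 and 48.8 CPM in the 5mSC libraries and at 81.0, 93.1, 89.5, 80.5 and 77.9 CPM in the 24mSC libraries. The old libraries lay above all young ones, and replicate 3 was the lowest. The Srebf1 log2 fold change was 0.47 ± 0.10 without replicate 3 (adjusted p = 0.0132) and 0.61 ± 0.14 with it (adjusted p = 0.0421). Lss, lanosterol synthase, ranged over 22.2 to 33.5 CPM in 5mSC and 37.1 to 40.2 CPM in 24mSC (0.40 ± 0.10, adjusted p = 0.0339). The Lss call held in only 7 of 19 alternatives.

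Hormone and clock genes moved in both directions, where 1.83% of all genes rose and 1.74% fell. Of 22 genes of the corticosteroid and thyroid response 3 fell. Dio2, the deiodinase that makes active thyroid hormone in astrocytes (ENSMUSG00000007682, GRCm38 chr12:90724552-90738438), was at 76.7, 131, 95, 120.3 and 191 CPM in the 5mSC libraries and at 53.2, 70.5, 62.1, 76.1 and 60.6 CPM in the 24mSC libraries. Young libraries varied widely, and the lowest of them lay just above the highest old one. The Dio2 log2 fold change was -1.01 ± 0.19 without replicate 3 (adjusted p = 0.0069) and -0.93 ± 0.19 with it (adjusted p = 0.0239). Tsc22d3, a target of glucocorticoids, and Nr3c2, the mineralocorticoid receptor, fell as well (-0.56 ± 0.13, adjusted p = 0.0241, with replicate 3 -0.48, adjusted p = 0.0722 and -0.34 ± 0.080, adjusted p = 0.026, with replicate 3 -0.20, adjusted p = 0.387). Of 23 clock genes 2 rose, Npas2 (0.51 ± 0.10, adjusted p = 0.0102) and Nr1d1 (0.34 ± 0.075, adjusted p = 0.0186), and 2 fell, Nfil3 (-0.89 ± 0.15, adjusted p = 0.00336, with replicate 3 -0.73, adjusted p = 0.0587) and Per2 (-0.45 ± 0.12, adjusted p = 0.043, with replicate 3 -0.46, adjusted p = 0.059). Npas2 drives clock transcription, and Nr1d1, Nfil3 and Per2 repress it. The labels give no time of day for the samples. Of 30 genes of insulin and IGF signalling Grb10, an adaptor that dampens the receptors, rose (0.47 ± 0.11, adjusted p = 0.0245, with replicate 3 0.37, adjusted p = 0.107).

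Genes of proliferation and new neurons gave 1 call each, where 1.74% of all genes fell. Of 18 proliferation genes Top2a, a topoisomerase of dividing cells, fell, and all 18 were below 0 at a median of -0.28. Top2a was at 0.972, 1.16, 5.15, 1.48 and 1.28 CPM in the 5mSC libraries and at 0.765, 0.310, 0.651, 0.702 and 0.671 CPM in the 24mSC libraries (-0.99 ± 0.27, adjusted p = 0.0472, with replicate 3 -1.59, adjusted p = 0.0639). All old libraries were below the young ones, and replicate 3 was far above the other young ones. The Top2a call held in 5 of 19 alternatives and was lost on leaving out any of 8 libraries, with the 2 groups alone and with the neocortex covariate. Of 26 genes of adult neurogenesis Neurog2, a proneural factor, fell (-1.12 ± 0.29, adjusted p = 0.0397, with replicate 3 -1.12, adjusted p = 0.0625). Its call held in only 6 of 19 alternatives and was lost on leaving out any of 8 libraries. Among 17 genes of DNA methylation and demethylation 3 fell, Gadd45g, Uhrf1, which recruits the maintenance methyltransferase (-0.97 ± 0.24, adjusted p = 0.0317, with replicate 3 -3.00, adjusted p = 0.0542), and Gadd45b (-0.91 ± 0.19, adjusted p = 0.0155, with replicate 3 -0.79, adjusted p = 0.0587), of which the Gadd45 genes are also in the immediate early list. Uhrf1 stood at 16.8 CPM in 5mSC replicate 3 and at 0.682 to 1.04 CPM in the other young libraries, and 15.4% of its words occur in other genes. Of 41 spliceosome and RNA-binding genes Srsf7 (-0.29 ± 0.065, adjusted p = 0.0208, with replicate 3 -0.42, adjusted p = 0.0518), Hnrnpc (-0.29 ± 0.073, adjusted p = 0.0345, with replicate 3 -0.23, adjusted p = 0.136) and Tra2a (-0.31 ± 0.080, adjusted p = 0.0397, with replicate 3 -0.47, adjusted p = 0.0625) fell. None of 40 histone-modifying enzymes, 20 senescence and p53 target genes or 7 sirtuins passed.

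The age difference in enriched mice rests on other libraries, and the old mice among them were enriched only late in life. There 34 of 16755 genes tested rose and 11 fell at the same threshold, and 28 of the 599 genes called in the standard cage were among them. Of the 307 genes higher in the standard cage 251 (81.8%) had a positive age difference in enriched mice, against 49.9% of all genes tested, and of the 292 lower genes 235 (80.5%) had a negative one, against 50.1%. The medians were smaller there: 0.21 against 0.64 for the higher genes and -0.094 against -0.39 for the lower ones. The genes were chosen by their value in the standard cage, so these medians are a description and no test.

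Some complement, microglial and oligodendrocyte lineage genes passed with age in both housings. In enriched mice 2 of 19 complement genes and none of 14 homeostatic microglia genes rose, and 2 of 20 genes of oligodendrocyte precursors and commitment fell. Over all 16755 genes tested only 34 rose and 11 fell there, so a list without a call says little. C4b went from 23.1 to 39.7 CPM in 5mEE to 86.7 to 175 CPM in 24mEE, a log2 fold change of 1.98 ± 0.20 (adjusted p = 1.78e-05). Gpr17 went from 53 to 64.8 to 24.5 to 36.3 CPM, -1.05 ± 0.11 (adjusted p = 1.78e-05), and Bmp4 from 0.900 to 1.8 to 0.275 to 0.620 CPM, -1.59 ± 0.27 (adjusted p = 0.00735). Pcdhb9 and Lin28b likewise rose in enriched mice, by 0.69 ± 0.085 (adjusted p = 0.000354) and 1.05 ± 0.15 (adjusted p = 0.00169). Activated microglia genes had a median of 0.36 there, with 2 of 22 passing, and Ctss was at 0.43 ± 0.085 (adjusted p = 0.0279).

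No activity gene passed with age in enriched mice. Arc ranged over 75.6 to 158 CPM among the 5mEE libraries and 68.9 to 213 CPM among the 24mEE libraries, a log2 fold change of 0.086 ± 0.31 (adjusted p = 0.977). Nptx2 was at 32.1 to 42.2 and 31.9 to 45.4 CPM, 0.093 ± 0.12 (adjusted p = 0.911). None of the 26 immediate early genes passed there, where 45 of all 16755 genes tested passed, and their median was 0.15. For heat shock proteins none of 31 passed, but 29 were below 0 at a median of -0.16, and for the endoplasmic reticulum list the median was -0.15. Dnajb5 was at -0.046 ± 0.069 (adjusted p = 0.929) and Cd44 at -0.68 ± 0.26 (adjusted p = 0.386).

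The difference between the age effects of the 2 housings was tested by the interaction of age and housing. No gene passed in edgeR with or without replicate 3, with 1336 and 1530 genes at an unadjusted p under 0.05. DESeq2 called 6 and 17 genes. The gene calls above are therefore not shown to belong to the standard cage alone.

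**Figure D4:**
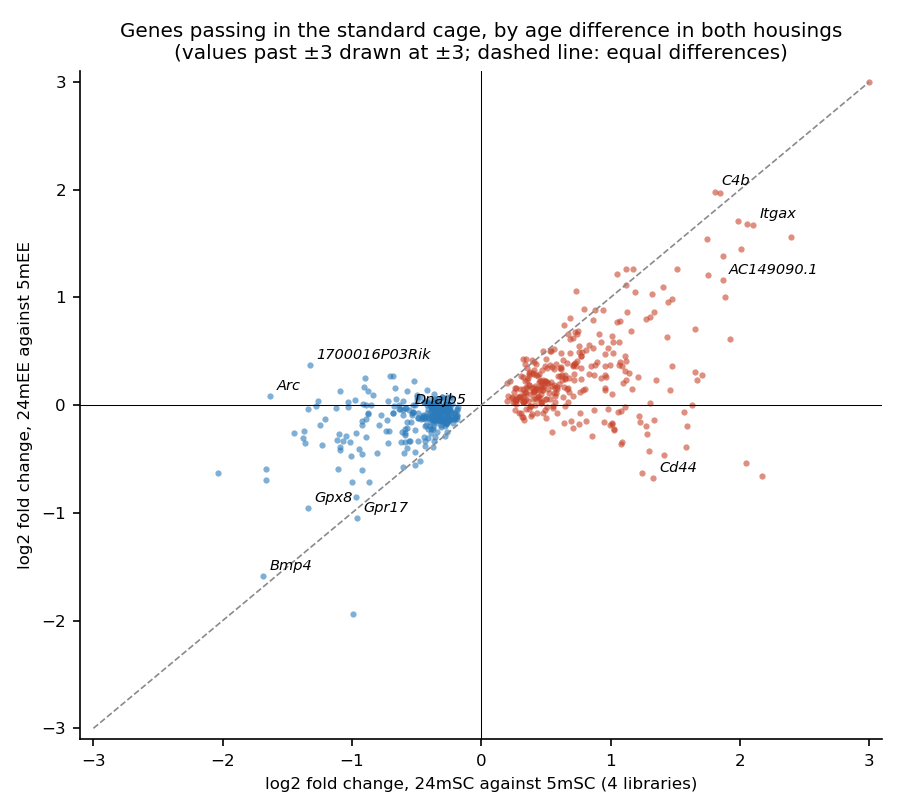
Log2 fold change with age in the standard cage without 5mSC replicate 3 (horizontal axis) and in the enriched environment (vertical axis) for the 599 genes called in the standard cage, red higher and blue lower, with values past 3 drawn at the edge and a dashed line of equal differences. C4b and Gpr17 lie near the dashed line, while Arc and Dnajb5 lie near 0 on the vertical axis.

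Age differences went with gene length. The genes were split into 5 classes of equal number by exon length. In the class with the shortest exons (59 to 2168 bases) 26 genes rose (0.778%) and 60 fell (1.796%), at a median of -0.070. In the class with the longest (7261 bases or more) 79 rose (2.36%) and 16 fell (0.479%), at a median of 0.055. Over all genes tested 1.83% rose and 1.74% fell. With replicate 3 the medians were -0.11 and 0.059. In enriched mice the same classes had medians of 0.021 and -0.011. Calls went with expression level too. In the lowest of 5 classes of mean log2 CPM 62 genes rose (1.85%) and 23 fell (0.686%). In the second 122 rose (3.64%) and 43 fell (1.28%). In the fourth 44 rose (1.31%) and 89 fell (2.66%), and in the highest 26 rose (0.776%) and 54 fell (1.61%). The part of length or level in the differences of the gene lists was not tested. Among 1189 long noncoding genes 19 rose (1.598%) and 4 fell (0.336%). Among 14584 protein-coding genes 276 rose (1.892%) and 281 fell (1.927%).

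**Figure D5:**
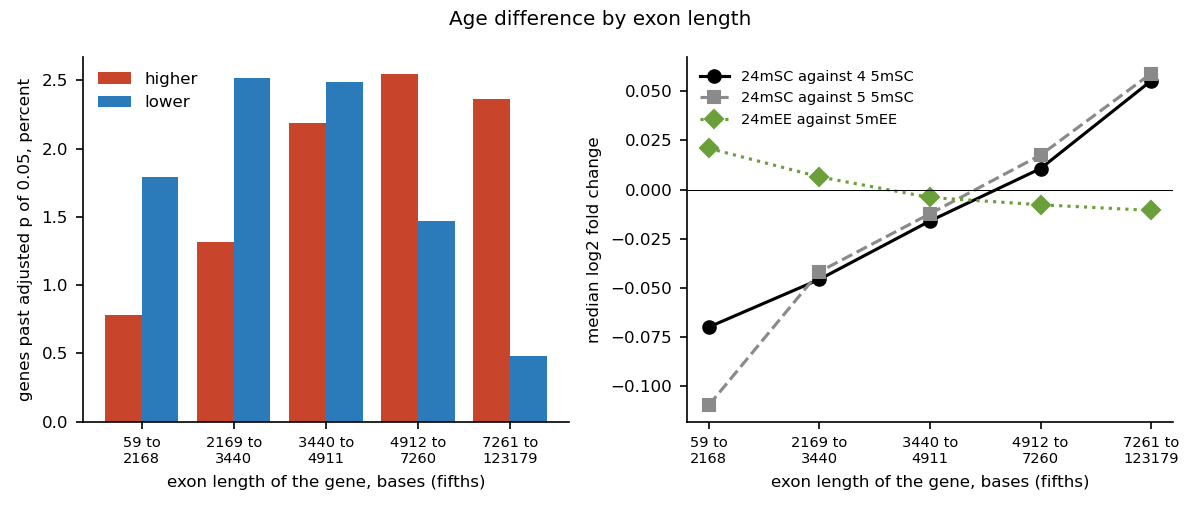
Left, percent of genes higher (red) and lower (blue) in 24mSC without 5mSC replicate 3 in 5 classes of exon length in bases. Right, median log2 fold change in the same classes for the standard cage without and with 5mSC replicate 3 and for the enriched environment. The standard cage medians go from -0.070 to 0.055 without replicate 3, and those of enriched mice from 0.021 to -0.011.

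A few genes had large values in all 20 libraries only through 5mSC replicate 3. Gm26917, a long noncoding gene, was at 22934 CPM in that library and at 30.0 to 69.1 CPM in the other young ones, and its log2 fold change was -0.20 ± 0.39 without replicate 3 (adjusted p = 0.795) and -6.90 ± 1.59 with it (adjusted p = 0.0433). The mitochondrial transfer RNAs mt-Ta, mt-Tn, mt-Tc and mt-Tp were at 5011, 1124, 6401 and 3480.4 CPM there. In the other young libraries mt-Ta was at 17.5 to 26.7 CPM and mt-Tp at 47.5 to 58.7 CPM. Rpl39, a ribosomal protein gene, was at 1224 CPM against 8.96 to 12.5 CPM. Without replicate 3 none of these genes passed, and mt-Rnr1 and mt-Rnr2 stood at -0.33 ± 0.17, adjusted p = 0.259 and -0.26 ± 0.16, adjusted p = 0.353. Of the 13 mitochondrial genes of oxidative phosphorylation, mt-Atp6, mt-Atp8, mt-Co2, mt-Co3 and mt-Nd4l had no count in any of the 10 libraries, so they were not measured by these tables.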

How the data were processed

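Hippocampal RNA of 20 libraries (5 each in 5mSC, 24mSC, 5mEE and 24mEE) was analysed, grouped by the age and perturbation in the labels. The values are whole-number counts of reads per Ensembl gene, deposited for each sample. A deposited table of RPKM was not used, since its scaling does not follow the library totals. The labels name bcl2fastq 1.8.2, STAR 2.4.1d as the aligner, featureCounts 1.4.6-p4 as the counter and the build GRCm38, with single-end reads of libraries that do not mark the strand. According to the study's methods these deposited counts were made automatically for the archive and are not those behind its own results. Reads of overlapping genes or shared sequence can be lost or split by such counting, so shared 50-base words and exon overlaps were computed for the named genes.

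The filter filterByExpr of edgeR 4.0.16 (R 4.3.3) took out rare genes (least count 10, least total 15) and TMM set the scale of each library. The quasi-likelihood test was then run with 1 term, the group of 4 levels, once on all 20 libraries and once without 5mSC replicate 3, whose mitochondrial ribosomal RNA exceeded 10% of counts. Contrasts were 24mSC with 5mSC, 24mEE with 5mEE and their interaction. The threshold was an adjusted p of 0.05. The code was tested on simulated data. Library totals ranged from 11.0 to 34.1 M counts, and 3 counts correspond to 0.0881 to 0.274 CPM in the 10 libraries compared. The labels do not say that samples of a group came from separate animals or litters, so p values measure the spread between these samples.

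Genes were named by rule: up to 15 per direction with the smallest p among those passing in both fits with a mean log2 CPM of at least 1, up to 4 passing members of each list described or the 2 with the smallest p, and 8 genes moved most by 5mSC replicate 3 or of mitochondrial ribosomal RNA. Where all called members of a list are given, those this rule does not reach, and the promoters shown, were picked with their values in view. The members, the 62 gene lists and the rule were chosen with earlier results of these data known, so the lists give no independent support. Lists are described by counts and medians and were not tested. Alternatives were DESeq2 1.42.0, limma 3.58.1 (voom with quality weights), other filters and scaling, covariates, fits of the 2 groups alone and leaving out each library. Promoter sequences came from RefSeq for GRCm38.p6.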

Additional observations from a re-analysis of the deposited data

Results flagged for a closer look

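In groups of 5 libraries, a library was noted where its gap to the nearest other library exceeded 0.71 of the group's range (Dixon's ratio), over 260 groups of values of single genes and 124 of list scores. Chance alone gives such a library in about 1 in 20 groups. The 28 genes found in 5mSC replicate 3 include 8 that were named because this library moved them most or because they are its mitochondrial ribosomal RNA, and 4 chosen after their values were seen, so their number is not to be read against that rate.

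Of the measures of whole libraries, 5mSC replicate 3 stood apart in its percent of mitochondrial ribosomal RNA (ratio 0.973) and in its median r with its group (0.889), and 24mSC replicate 2 in its percent of mitochondrial ribosomal RNA, at 1.49% (0.73).

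Of the list scores, 5mSC replicate 3 was high in interferon-stimulated genes (0.772), choroid plexus and ependyma (0.767), mitochondrial ribosomal RNA (0.863) and proliferation (0.934), and low in CA2 markers (0.716), autophagy (0.885) and neurotrophins and their receptors (0.722). In 5mSC replicate 4 the MHC class II genes (0.718) and the CA3 markers (0.79) were high, and in 5mSC replicate 1 the histone-modifying enzymes were low (0.807). In 24mSC replicate 1 the endothelium (0.737), pericyte and smooth muscle (0.857) and red blood cell (0.86) scores were high and that of cholesterol synthesis was low (0.712). The score of CREB and MAPK feedback regulators was high in 24mSC replicate 4 (0.736).

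Of the genes, 5mSC replicate 3 was the highest in Gm26917, mt-Ta, mt-Tn and mt-Tc (0.998 each), Rpl39 and mt-Tp (0.997 each), mt-Rnr1 (0.975) and mt-Rnr2 (0.981). It was also the highest in Cfp (0.795), Dok3 (0.735), Zmym1 (0.787), Nlrc5 (0.956), Oasl2 (0.816), Socs3 (0.836), Irf8 (0.849), Bmp4 (0.784), Col8a1 (0.916), Uhrf1 (0.977), Top2a (0.878) and Tra2a (0.833). Outside the rule for named genes it was the highest in AC149090.1 (0.916), Pisd-ps1 (0.941), Neat1 (0.797) and Spag6 (0.844). It was the lowest in Dnajb5 (0.746), Cd68 (0.829), Zdhhc2 (0.74) and Nr3c2 (0.779).

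The remaining libraries gave fewer. In 24mSC replicate 4 C4b (0.825), Dusp5 (0.748), Arc (0.824), Bdnf (0.769) and Tsc22d3 (0.911) were high. In 24mSC replicate 2 mt-Rnr1 (0.748) and mt-Rnr2 (0.712) were high and Top2a was low (0.75), and in 24mSC replicate 1 Atp5g1 (0.782) and Nr4a3 (0.72) were high. In 5mSC replicate 2 Casp1 (0.848) and Atp2b4 (0.743) were high, Fmod was high in 5mSC replicate 4 (0.734), and Fgfr3 was low in 5mSC replicate 5 (0.736).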

How the results depend on the processing

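With all 20 libraries the counts of higher, lower and all genes called for age in the standard cage were 78, 56 and 134, and without 5mSC replicate 3 they were 307, 292 and 599. The DESeq2 Wald test gave 357, 402 and 759 with 20 libraries and 527, 519 and 1046 without replicate 3. Fitting only the 2 groups gave 1, 2 and 3, and 59, 50 and 109. Limma-voom with quality weights gave 191, 115 and 306, and 194, 142 and 336. The neocortex covariate gave 2, 23 and 25, and 37, 73 and 110. No filter beyond 1 count gave 36, 23 and 59 with 20 libraries, and the choroid plexus covariate 129 higher and 210 in all. With 5mSC replicates 1 and 3 both left out, 170, 193 and 363 were called. Leaving out each library in turn gave 18 to 538, 12 to 589 and 30 to 1127 with 20 libraries (fewest without 24mSC replicate 3, most without 5mSC replicate 2), and 101 to 843, 110 to 840 and 211 to 1683 without replicate 3 (by the same libraries). DESeq2 size factors, a CPM filter and removal of mitochondrial ribosomal RNA left these counts within 1.5 times. The interaction of age and housing had 0 genes, 6 by DESeq2 with 20 libraries, and without replicate 3 17 by DESeq2, 4 without the filter and 0 to 10 with a library left out. The cause of these changes was not tested.

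Of the 114 genes given with values that passed without replicate 3, 44 passed under every alternative run without that library. With the neocortex covariate 67 were lost, with the 2 groups alone 62 and on leaving out some library 56. The fit with all 20 libraries is not among these alternatives, and 63 of the 114 did not pass in it. Arc, Bdnf, Nptx2, Neat1 and AC149090.1, for example, passed under every alternative but not there. The calls of Gfap, Hpca, Ifih1, Kcnt1, Lss, Neurog2, Prlr and Top2a were each lost in 8 of the fits that left out 1 more library. Log2 fold changes changed sign in 6 genes, none of which passed where it did. With 20 libraries mt-Tc was at 0.12 with quality weights, 0.18 without both replicates and -5.51 to 0.21 with a library left out, and Nlrc5 at 0.93, 1.18 and -0.42 to 1.06, and at 0.46 and 0.52 with the choroid plexus and neocortex covariates. Without both replicates mt-Ta was at 0.00276 and Rpl39 at 0.00979, and with a library left out mt-Ta was at -5.90 to 0.026. Without replicate 3, mt-Tn was at 0.00349 with quality weights, 0.17 with the neocortex covariate and -0.17 to 0.15 with a library left out. Rpl39 was at 0.00379 with quality weights, 0.00979 without replicate 1 as well and -0.15 to 0.042 with a library left out, mt-Ta at -0.044 to 0.18 and Gm26917 at -0.43 to 0.099.

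No paired analysis was possible because the replicate numbers follow the order of deposition and pair no samples. Depth limits the rare genes: Itgax and Clec7a rest on 3 to 55 counts in a library, and a gene without a count may reach 0.274 CPM in the shallowest.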

Other observations

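Some genes without a place in the lists had small p values without 5mSC replicate 3, and 4 were chosen for this text after seeing their values. AC149090.1, a protein-coding gene on the unplaced scaffold JH584304.1, was at 75.9, 46.1, 400.2, 50.2 and 64.5 CPM in the 5mSC libraries and at 266, 243, 170.2, 214 and 197 CPM in the 24mSC libraries. Replicate 3 of 5mSC was the highest of all 10, and the other young libraries lay far below every old one. The AC149090.1 log2 fold change was 1.87 ± 0.19 without replicate 3 (adjusted p = 3.57e-05) and 0.79 ± 0.43 with it (adjusted p = 0.303), and in enriched mice it was 1.16 ± 0.17 (adjusted p = 0.00169). Neat1, the RNA scaffold of nuclear paraspeckles, was at 129.9, 161, 312, 130.2 and 123 CPM in the 5mSC libraries and at 256, 328, 261, 268 and 201 CPM in the 24mSC libraries. Its log2 fold change was 0.94 ± 0.16 without replicate 3 (adjusted p = 0.00385) and 0.62 ± 0.22 with it (adjusted p = 0.129), and in enriched mice it was 0.89 ± 0.15 (adjusted p = 0.00702). Spag6, a protein of motile cilia, was at 1.12 ± 0.12 without replicate 3 (adjusted p = 0.00012) and 0.58 ± 0.29 with it (adjusted p = 0.262) in the standard cage and at 1.27 ± 0.12 (adjusted p = 7.21e-06) in enriched mice. The pseudogene Pisd-ps1, which has 11.4% of its 50-base words in common with other genes, was at 1.12 ± 0.14 without replicate 3 (adjusted p = 0.000315) and 0.47 ± 0.32 with it (adjusted p = 0.422).

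Red blood cell genes, a sign of blood left in the tissue, had a mean log2 CPM of 2.05, 2.23, 2.91, 3.13 and 3.01 in the 5mSC libraries and 5.04, 2.36, 1.92, 2.03 and 2.02 in the 24mSC libraries. Replicate 1 of 24mSC also had the highest endothelial score of the 10 libraries, 5.26. Of the 7 listed red blood cell genes 5 were tested, and none passed. Their median log2 fold change was 0.48 without replicate 3 of 5mSC and -0.29 by limma-voom with quality weights. With 24mSC replicate 1 left out as well it was -0.71, and with any other library left out it was 0.32 to 0.67.

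The remaining lists held few calls, where 1.83% of all genes rose and 1.74% fell. Of 9 tested genes of MHC class II presentation 1 rose, Ctss, at a list median of -0.066, and of 34 antioxidant and peroxidase genes 1 fell, Gpx8, at -0.10. Of 19 neurotrophins and their receptors 1 fell, Bdnf, at 0.043. No gene passed among 10 of perivascular macrophages and granulocytes (-0.13), 11 of thalamus and habenula (0.12), 8 of Cajal-Retzius and mossy cells (0.065) and 7 mitochondrial genes of oxidative phosphorylation (-0.057).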
